A study of Mus musculus with 12 samples.

Results

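The Iroquois genes Irx1 to Irx6 encode homeodomain transcription factors of the TALE class, and every probe set annotated to 1 of these genes was taken. Each of the 6 genes had 1 probe set, so the group held 6 of the 44238 probe sets tested and 6 of the 17996 genes named. The values come from somatic support cells, the lineage of the fetal gonad that forms Sertoli cells in a testis and pregranulosa cells in an ovary. These cells were sorted by flow cytometry from gonads of mice of an FVB background. All 4 groups carried the transgene FVB.Cg-Tg(Tyr)3412ARpw, named for tyrosinase, and the transgene Tg(Sry-EGFP)92EI, in which Sry regulatory sequence drives a green fluorescent reporter. The groups were XX cells at embryonic day 11.5 (E11.5), XY cells at E11.5, XX cells at E12.5 and XY cells at E12.5. Each group had 3 pools of sorted cells with 1 Affymetrix mouse expression array per pool, 12 arrays in all. The labels give neither the gate of the sort nor the number of animals behind a pool. Nor do they tell if different litters supplied the pools, and the p-values reflect only how these pools varied, which may in part be technical.

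In mammals the Iroquois genes lie in 2 groups of neighbours, Irx1, Irx2 and Irx4 in one and Irx3, Irx5 and Irx6 in the other, which arose by duplication. Their proteins bind DNA through an atypical homeodomain and also share a short conserved stretch known as the Iro box. They are known for patterning the neural tube, limb and heart, and in the fetal ovary Irx3 and Irx5 are known as products of pregranulosa cells that are needed for healthy follicles.

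Irx3 and Irx5 stood apart from the other Iroquois genes in these cells. At E12.5, Irx3 and Irx5 were 20.0-fold and 7.66-fold lower in XY than in XX cells, and in XX cells they rose over the preceding day, by 10.1-fold and 11.9-fold, the latter from readings near those of probe sets without a target. Of all probe sets, 3.81% were called lower in XY at E12.5 and 1.69% were called higher over the day in XX. Irx6, which lies beside Irx5, was not called in any of 5 comparisons, and neither were Irx1, Irx2 and Irx4 of the other cluster. Readings of these uncalled genes lay near those of probe sets without a target, and whether they registered transcript was not tested. A probe set is called here when its adjusted p is under 0.05, from limma with Benjamini-Hochberg adjustment over all 44238 probe sets. The 5 comparisons set XY against XX cells on both days, set the later against the earlier day for both sexes, and test the interaction, which is the day change in XY minus that in XX. Comparisons that use the same groups share arrays and are not independent of each other.

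Of the promoters that could be matched, those of Irx3, which was called in these cells, and Irx4, which was not, are shown first. The sequence of Irx2, also not called, is not printed, and a link between promoter sequence and call was not tested. RefSeq promoter sequences of the GRCm38.p6 build, covering 250 bases before to 50 bases after the annotated start, matched 3 of the 6 genes, Irx2, Irx3 and Irx4. The promoter of Crnde is shown beside those of Irx3 and Irx4 because Crnde, a long noncoding RNA gene, is the measured gene that lies between Irx3 and Irx5. Each is written 5′ to 3′ on the strand of its gene, with every CpG in capitals. Irx3 lies at chr8:91801605-91801904 on the minus strand, Crnde at chr8:92356071-92356370 on the minus strand and Irx4 at chr13:73260247-73260546 on the plus strand.
Irx3: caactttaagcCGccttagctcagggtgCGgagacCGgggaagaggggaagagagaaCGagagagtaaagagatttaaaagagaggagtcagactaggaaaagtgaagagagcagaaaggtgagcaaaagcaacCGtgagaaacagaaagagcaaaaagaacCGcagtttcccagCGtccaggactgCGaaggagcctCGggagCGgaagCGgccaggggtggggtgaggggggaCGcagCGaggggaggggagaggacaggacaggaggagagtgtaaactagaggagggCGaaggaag
Crnde: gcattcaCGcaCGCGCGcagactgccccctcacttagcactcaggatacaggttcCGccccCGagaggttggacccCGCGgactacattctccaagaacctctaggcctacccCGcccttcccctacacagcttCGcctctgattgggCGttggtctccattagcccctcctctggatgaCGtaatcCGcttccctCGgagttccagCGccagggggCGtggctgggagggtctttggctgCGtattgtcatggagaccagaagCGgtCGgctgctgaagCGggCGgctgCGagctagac
Irx4: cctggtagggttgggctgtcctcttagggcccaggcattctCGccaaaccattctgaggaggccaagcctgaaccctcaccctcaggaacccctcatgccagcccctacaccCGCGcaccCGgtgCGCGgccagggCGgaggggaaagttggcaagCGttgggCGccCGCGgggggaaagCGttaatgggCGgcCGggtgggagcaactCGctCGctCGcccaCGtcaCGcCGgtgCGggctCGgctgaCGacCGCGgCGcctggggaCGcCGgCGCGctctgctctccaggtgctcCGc

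The Irx3 promoter had a GC content of 56.0% and 14 CpG, against medians of 52.7% and 7 over 32851 RefSeq promoters of the same length. Its gene strand is made of 75.7% purines (A or G), with long runs of a and g, and 99.9% of those promoters held a smaller share, with a median of 50.3%. The Irx4 promoter held 70.7% GC and 31 CpG, more CpG than 89.4% of promoters, and its purine share exceeded that of only 45.8% of them. Irx2, at chr13:72628570-72628869 on the plus strand, held 69.0% GC and 25 CpG. Crnde held 62.7% GC and 22 CpG, with 45.3% purines. These are properties of the reference sequence and were not measured in the cells.

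Words known from DNA-binding factors were searched on both strands of these 4 promoters. They were the Iroquois site ACANNTGT, where N is any base, found in 7.38% of all promoters of this length; the words CTTTGAA or CTTTGAT or CTTTGTA or CTTTGTT of TCF/LEF factors, found in 16.9%; AACAAT of SOX factors, found in 10.7%; TGATAA or AGATAA of GATA factors, found in 18.6%; and the TATA box TATAAA, found in 13.6%. None of these letters occurred in the windows of Irx2, Irx3, Irx4 or Crnde, which says nothing of the factors or of sequence outside the windows.

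The sex on every label fitted the arrays. Xist, the RNA of X inactivation, read at least 12.8 on the log2 scale in XX pools and at most 7.87 in XY pools, and 5 of 9 probe sets of the Y-linked genes Eif2s3y, Kdm5d and Uty separated the sexes. In XX pools, which lack these Y-linked genes, those 9 probe sets still read from 3.09 to 6.04. The 5 that separated the sexes read at most 5.17 there, and whether the others read some other transcript was not tested. In this report the readings of probe sets without a target are those of all 9 in XX pools. A reading from 3.09 to 6.04 therefore does not by itself show a transcript, which bears on Irx1, Irx4 and Irx6 below and on Irx5 outside XX E12.5. Irx2 read just above it. Array medians ran from 6.49 to 6.59. The lineage markers Wt1, Nr5a1 and Gata4, transcription factors of the early somatic gonad, were not called between sexes at E12.5, with log2 differences of -0.05 ± 0.21, 0.23 ± 0.30 and 0.01 ± 0.33 (SE). Their fellow markers Lhx9 and Emx2 were called lower in XY at that day, with differences of -4.13 ± 0.17 and -3.16 ± 0.25 (limma adjusted p = 1.7e-06 and 5.6e-05). At E11.5 Wt1, Nr5a1 and Gata4 read higher in XY, by 0.67 ± 0.21, 0.94 ± 0.30 and 0.78 ± 0.33. The pools did not overlap, but none was called (limma adjusted p = 0.57, 0.57 and 0.73). Lhx9 and Emx2 differed by -0.27 ± 0.17 and -0.16 ± 0.25 at E11.5 without a call, though 1 of 4 Lhx9 probe sets was called lower.

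Irx3 gave the clearest split between groups. Its probe set, 1418517_at, read 12.6, 12.73 and 12.86 on the log2 scale in the 3 XX pools of E12.5. It read 8.57, 8.64 and 8.01 in the XY pools of the same day. Every XX pool thus lay far above every XY pool, and the 2 groups did not overlap. The means were 12.73 ± 0.13 in XX and 8.41 ± 0.35 in XY (SD, n = 3). The difference of -4.32 ± 0.48 (SE) amounts to a level 20.0-fold lower in XY, with a 95% interval of 9.49-fold to 42.2-fold and a limma adjusted p of 0.00048.

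A day earlier the Irx3 values of the 2 sexes mixed. XX pools of E11.5 read 9.56, 8.16 and 10.45, the widest spread of the 4 groups. XY pools of E11.5 read 8.84, 8.46 and 9.48, all inside the range of the XX pools. The means were 9.39 ± 1.15 and 8.93 ± 0.51 (SD, n = 3), and the difference of -0.47 ± 0.48 was not called (limma adjusted p = 0.84). Its 95% interval on the log2 scale, -1.54 to 0.61, leaves room for a difference in either direction.

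**Figure D1:**
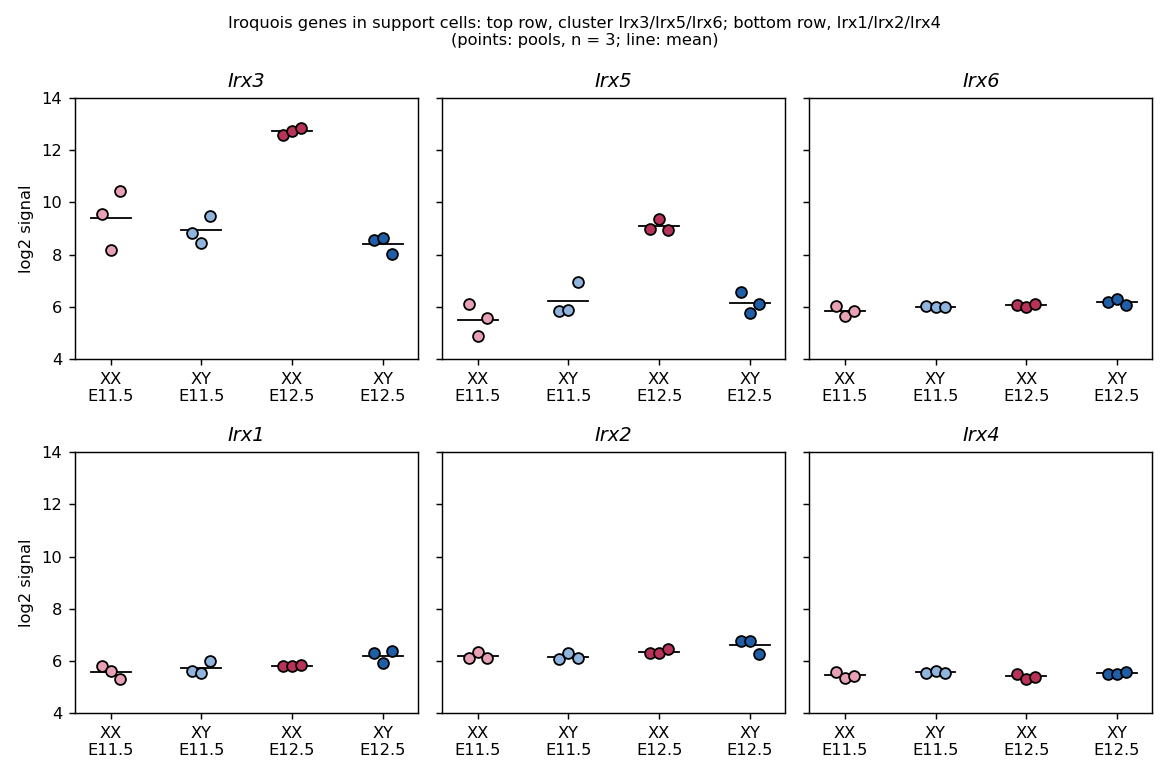
Log2 signal of the 6 Iroquois probe sets in every pool (points, n = 3 per group) with the group mean (line), by sex and embryonic day, with Irx3, Irx5 and Irx6 in the upper row and Irx1, Irx2 and Irx4 in the lower row. Irx3 at 12.6 to 12.86 and Irx5 at 8.94 to 9.36 stand above their other groups in XX cells of E12.5, while the values of the other 4 genes lie close together in all groups.

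From E11.5 to E12.5, Irx3 rose in XX cells by 3.34 ± 0.48 on the log2 scale, which is 10.1-fold (95% interval 4.80 to 21.3, limma adjusted p = 0.011). The lowest XX pool at E12.5, 12.6, lay above the highest at E11.5, 10.45. In XY cells the change of -0.52 ± 0.48 was not called (limma adjusted p = 0.63), and the XY pools of the 2 days overlapped. The ordering of the 4 group means was XX E12.5, XX E11.5, XY E11.5 and XY E12.5, and only the first stood apart, since the ranges of the other 3 overlapped.

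The day change of Irx3 differed between the sexes by -3.86 ± 0.68 (log2, XY minus XX), a 14.5-fold difference of folds with a 95% interval of 5.04 to 41.7 and a limma adjusted p of 0.022. This call was lost, at limma adjusted p of 0.054, 0.057, 0.064 and 0.06, without XY E11.5 pool 3, XX E12.5 pool 2, XX E12.5 pool 3 and XY E12.5 pool 3 in turn. The rise in XX lost its call without XX E12.5 pool 3 (limma adjusted p = 0.054). Without XX E11.5 pool 2 the rise was 6.61-fold (limma adjusted p = 0.012) and the interaction 9.47-fold (limma adjusted p = 0.012).

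Irx5, the neighbour of Irx3 that is co-expressed with it in several embryonic tissues, had the same form. Its probe set, 1421072_at, read 8.99, 9.36 and 8.94 in XX pools of E12.5. XY pools of that day read 6.57, 5.78 and 6.11. The lowest XX pool was thus above the highest XY pool by a wide margin. Means of 9.09 ± 0.23 and 6.15 ± 0.40 (SD, n = 3) differed by -2.94 ± 0.37 (SE), or 7.66-fold lower in XY (95% interval 4.35 to 13.5, limma adjusted p = 0.00098).

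Irx5 at E11.5 read 6.11, 4.88 and 5.56 in XX pools. The XY pools of E11.5 read 5.83, 5.87 and 6.94. The XX mean, 5.51 ± 0.61, lay below the XY mean, 6.21 ± 0.63 (SD, n = 3), but the pools overlapped and the difference of 0.70 ± 0.37 was not called (limma adjusted p = 0.76). XX E11.5 pool 2 was the lowest of all 12 arrays for Irx5, at 4.88, and the lowest of its group for Irx3, at 8.16.

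The day change of Irx5 in XX was 3.58 ± 0.37, or 11.9-fold (95% interval 6.78 to 21.0, limma adjusted p = 0.0029). Its base, the XX E11.5 mean of 5.51, lies among the readings of probe sets without a target, as do some XY pools, so each Irx5 fold is one of signal and was not shown to be one of transcript. In XY the day change was -0.06 ± 0.37 (limma adjusted p = 0.95). The interaction of -3.64 ± 0.52 was 12.5-fold (95% interval 5.59 to 27.8, limma adjusted p = 0.007). The Irx5 calls at E12.5, over the day in XX and in the interaction held without each of the 12 arrays in turn, at limma adjusted p of at most 0.0062, 0.021 and 0.025. Group means ran from XX E12.5 through XY E11.5 and XY E12.5 to XX E11.5, and the last 3 groups overlapped. So Irx3 and Irx5 shared their highest group and not the order of the remaining 3.

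Among rises in XX cells over the day, counted as log2 differences, Irx3 ranked 7 of 44238 probe sets and 5 of 17996 genes. Among genes lower in XY at E12.5 it ranked 21, and in the interaction 23. Ranks of this kind compare differences within 1 probe set and not levels between probe sets, and Irx5 is given none because its lower readings were near those of probe sets without a target.

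The third gene of that cluster, Irx6, did not share the pattern. Its probe set, 1427383_at, ranged from 5.67 to 6.32 over the 12 arrays. Pools of XX E12.5 read 6.06, 6.01 and 6.1, and pools of XY E12.5 read 6.17, 6.32 and 6.06, so the sexes overlapped. The E12.5 difference was 0.13 ± 0.12 on the log2 scale, with a 95% interval of -0.13 to 0.38, which holds neither the difference of Irx3 nor that of Irx5. The day change in XX was 0.20 ± 0.12 (95% interval -0.06 to 0.46). In XY, where the E12.5 pools all lay above those of E11.5, it was 0.18 ± 0.12 (limma adjusted p = 0.44).

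Irx1, the first gene of the other cluster, ranged from 5.3 to 6.39 with probe set 1451983_at. Its XY pools at E12.5 read 6.32, 5.93 and 6.39. Its XX pools at E12.5 read 5.8, 5.82 and 5.86. The XY pools all lay above the XX pools, the reverse order of Irx3 and Irx5, but the difference of 0.39 ± 0.18 was not called (95% interval -0.01 to 0.78, limma adjusted p = 0.26). The E11.5 pools read 5.83, 5.63 and 5.3 in XX and 5.61, 5.56 and 6.0 in XY. The day change in XY was 0.49 ± 0.18 (limma adjusted p = 0.15) and that in XX 0.24 ± 0.18.

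Irx2, the partner of Irx1, read 6.77, 6.78 and 6.29 in XY pools of E12.5 with probe set 1426298_at. The XX pools of that day read 6.3, 6.33 and 6.46. At E11.5 the pools read 6.11, 6.36 and 6.13 in XX and 6.08, 6.3 and 6.13 in XY. XY pools 1 and 2 of E12.5 were thus the highest of all, and pool 3, at 6.29, lay just below the XX pools of that day. Irx2 differed by 0.25 ± 0.15 between sexes at E12.5 and by 0.44 ± 0.15 over the day in XY, with limma adjusted p of 0.41 and 0.11. Without XY E12.5 pool 3 the day change in XY was 0.60 and passed the threshold (limma adjusted p = 0.039).

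Irx4, best known from the ventricles of the heart, had the smallest range, 5.33 to 5.62, with probe set 1419539_at. Its group means were 5.46, 5.58, 5.42 and 5.53 in XX E11.5, XY E11.5, XX E12.5 and XY E12.5, and the pools overlapped in each of the 4 comparisons between groups. All its differences lay between -0.05 and 0.12 on the log2 scale, with an SE of 0.10 for those between 2 groups. Whether the probe sets of Irx1, Irx2, Irx4 and Irx6, or that of Irx5 outside XX E12.5, registered transcript or background was not tested. Each gene rests on a single probe set, so a change outside the stretch it reads could have been missed.

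**Figure D2:**
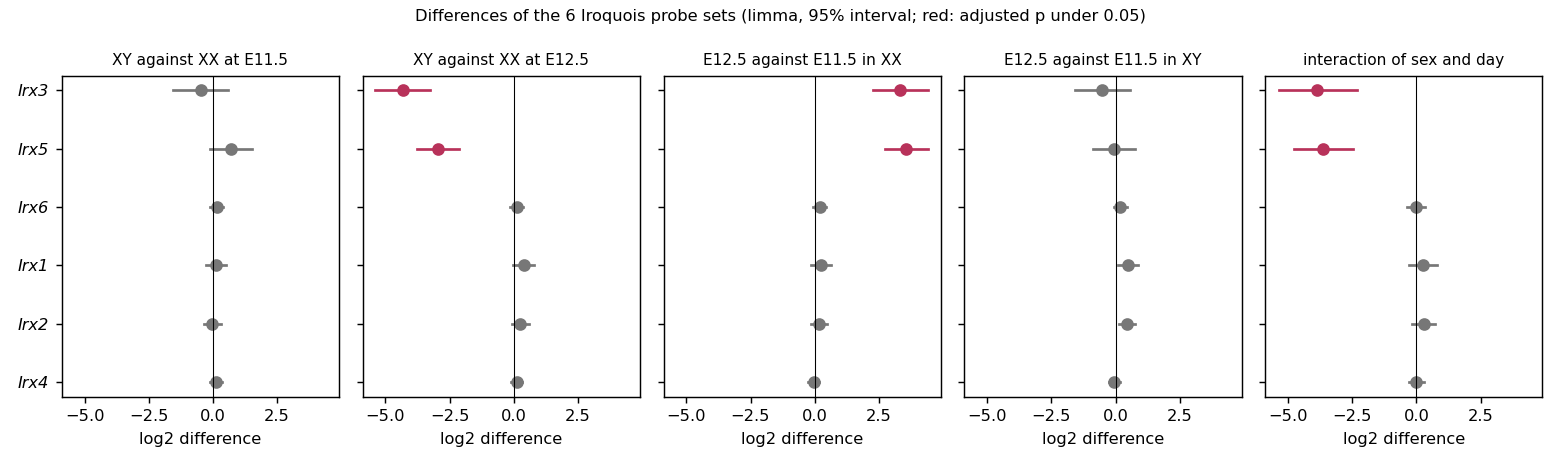
Log2 differences of the 6 Iroquois probe sets in the 5 comparisons, as points with 95% intervals from limma, red where the adjusted p is under 0.05. The red points are Irx3 and Irx5 in 3 panels, at -4.32 and -2.94 for sex at E12.5, 3.34 and 3.58 for the day in XX, and -3.86 and -3.64 for the interaction.

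Counted by cluster, 2 of 3 genes of the Irx3, Irx5 and Irx6 cluster were called lower in XY at E12.5, and 0 of 3 of the Irx1, Irx2 and Irx4 cluster were called by limma in either direction (0 at an unadjusted p under 0.05). The share of all probe sets called in this comparison was 7.72%, with 3.81% lower in XY. For the day in XX, 2 of 3 and 0 of 3 were called by limma, all higher (2 and 0 at an unadjusted p under 0.05), against 3.11% of all probe sets, 1.69% higher. In the interaction 2 of 3 were called lower and 0 of 3 in the other cluster by limma (0 at an unadjusted p under 0.05), against 1.75% of all, 0.954% lower. At E11.5 and over the day in XY, 0 of 6 were called by limma, against 0.0678% and 6.16% of all probe sets. At an unadjusted p under 0.05, 0 of 6 passed at E11.5 and 2 of 6, Irx1 at 0.02 and Irx2 at 0.013, passed over the day in XY.

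The median log2 difference of the Irx3, Irx5 and Irx6 cluster was -2.94 between sexes at E12.5, 3.34 over the day in XX, -0.06 over the day in XY and -3.64 in the interaction. For Irx1, Irx2 and Irx4 these medians were 0.25, 0.17, 0.44 and 0.25. Over all 17996 genes, with the brightest probe set each, they were 0.00, 0.12, 0.06 and -0.06. At E11.5 the medians of the 2 clusters were 0.15 and 0.12, close to each other, with 0.04 over all genes. With 3 genes on each side, these counts and medians are a description.

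The genes around each cluster were read next, in the order of the RefSeq table: any measured gene inside it and the 4 nearest measured genes on each side. The noncoding Crnde, between Irx3 and Irx5, moved with them. Its probe set read 6.72, 6.97 and 6.91 in XX pools of E12.5. The XY pools of that day read 5.57, 5.47 and 5.08. The E11.5 pools read 5.34, 4.98 and 5.37 in XX and 5.3, 5.42 and 6.09 in XY. All XX pools of E12.5 thus lay above the 9 other arrays.

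Crnde was 2.82-fold lower in XY at E12.5 (log2 difference -1.49 ± 0.22, limma adjusted p = 0.0023) and rose 3.12-fold over the day in XX (1.64 ± 0.22, limma adjusted p = 0.0072). Its interaction was -1.87 ± 0.31 (limma adjusted p = 0.015), and its change over the day in XY, -0.23 ± 0.22, was not called. At E11.5 Crnde leaned the same way as Irx5, by 0.37 ± 0.22 (limma adjusted p = 0.77). Crnde and Irx5 are adjacent genes, and whether the Crnde probe set reads only Crnde was not tested. The Crnde means outside XX E12.5, from 5.23 to 5.6, lay among readings of probe sets without a target. Its folds are thus of signal and were not shown to be of transcript.

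Fto, an RNA demethylase gene whose introns are known to hold enhancers of Irx3, is the nearest measured gene beyond Irx3. It read 10.8, 10.55 and 10.76 in XX pools of E12.5 and 10.0, 9.89 and 9.73 in XY pools. Fto was 1.78-fold lower in XY, with a log2 difference of -0.83 ± 0.15 (limma adjusted p = 0.0079), with 2 of 2 probe sets called. Its rise over the day in XX, 0.37 ± 0.15, was not called (limma adjusted p = 0.18). On the other side, past Irx6, the order reversed: Mmp2, a matrix metalloprotease gene, and Lpcat2, an enzyme gene of phospholipid remodelling, were higher in XY at E12.5.

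Mmp2 read 11.35, 11.24 and 11.1 in XX and 13.07, 13.29 and 12.76 in XY pools of E12.5, a difference of 1.81 ± 0.29 or 3.51-fold (limma adjusted p = 0.0038). Lpcat2 read 7.31, 8.21 and 7.88 in XX and 10.34, 10.44 and 10.2 in XY, a difference of 2.52 ± 0.29 or 5.75-fold (limma adjusted p = 0.00061). Both genes had 2 of 2 probe sets called higher. Mmp2 was also lower by 2.48-fold over the day in XX, at a limma adjusted p of 0.042 that was over the threshold in 11 of 19 alternatives (up to 0.15). Irx6 lies between the genes low in XY and the genes high in XY, and was called in neither direction. Its readings, 5.67 to 6.32, lay near those of probe sets without a target.

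In all, 2 of the 9 neighbours of the Irx3, Irx5 and Irx6 cluster were called lower in XY at E12.5 (Crnde and Fto) and 2 higher (Mmp2 and Lpcat2), where 11.1% of all genes were called in either direction. Rbl2, Aktip, Gm36243, Capns2 and Slc6a2 were not called there. Crnde alone was called in the same direction as Irx3 and Irx5 in all 3 comparisons. The median of the 9 was -0.02 at E12.5 and 0.06 over the day in XX.

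Around Irx1, Irx2 and Irx4 on chromosome 13 no other measured gene lay inside the cluster, and 2 of 8 neighbours were called at E12.5, both higher in XY, with 11.1% of all genes called. They were Adamts16, a secreted protease gene, at 2.39 ± 0.34 or 5.23-fold (limma adjusted p = 0.0022, 1 of 2 probe sets called), and 8030423J24Rik, the nearest measured gene before Irx1, at 1.61 ± 0.30 or 3.04-fold (limma adjusted p = 0.0093). The XX E12.5 mean of 8030423J24Rik, 5.87, lay among readings of probe sets without a target. In XX cells 0 of the 8 were called by limma over the day, with 1, Mrpl36, at an unadjusted p under 0.05. Irx1 leaned toward XY as these 2 did, at 1.31-fold, without passing the test.

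**Figure D3:**
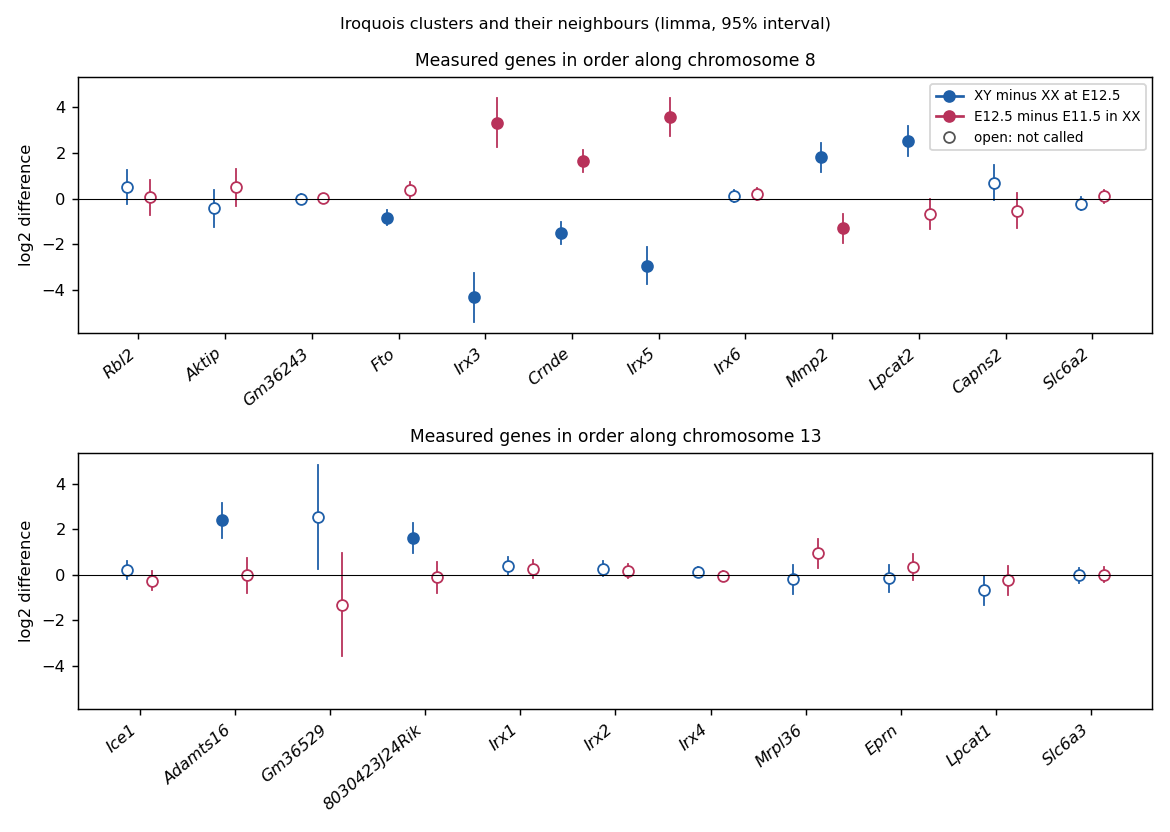
Log2 differences with 95% intervals (limma) of the Iroquois genes and their measured neighbours in chromosome order, for XY minus XX at E12.5 (blue) and E12.5 minus E11.5 in XX (red), filled where called; distances are not to scale. Irx3, Crnde and Irx5 are low in blue and high in red, Irx6 and the chromosome 13 cluster lie near 0, and Mmp2 and Lpcat2 are high in blue at 1.81 and 2.52.

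Which genes had a profile most like each of the 2 changing members was read as the Pearson correlation over the 12 arrays, with 1 probe set per gene. It is given with no p, since the same 4 groups set most of it, and 9 arrays outside XX E12.5 were also read alone. Those 9 arrays took part in the choice of the genes, so the correlations of the chosen genes there are not independent of it. For Irx3 the 6 most alike were Tdrp (0.975), Insyn2b (0.969), Fezf2 (0.964), Plcd3 (0.963), Foxl2 (0.955) and Stum (0.953). Outside XX E12.5 their correlations with Irx3 ran from 0.59 for Foxl2 to 0.86 for Fezf2. For Irx5 they were Crnde (0.972), Igsf21 (0.949), Lbx2 (0.948), Ccdc171 (0.944), Wnt10a (0.943) and Hs3st3a1 (0.94), and outside XX E12.5 from 0.53 for Hs3st3a1 to 0.85 for Ccdc171. Outside XX E12.5 the group means of Fezf2, Insyn2b, Crnde, Igsf21 and Lbx2 lay among readings of probe sets without a target.

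Foxl2 encodes the forkhead factor that maintains granulosa cell identity. It read 11.11, 11.03 and 11.11 in XX pools of E12.5, and 8.01, 7.39 and 7.96 in XY pools. Its E11.5 pools read 8.26, 7.54 and 8.78 in XX, with pool 2 lowest and pool 3 highest as for Irx3. Foxl2 was 9.83-fold lower in XY at E12.5 (limma adjusted p = 9.8e-05) and rose 7.42-fold in XX (limma adjusted p = 0.0026), beside 20.0-fold and 10.1-fold for Irx3. Of 2 Foxl2 probe sets, 1 was called in each of these comparisons. Insyn2b had the largest sex difference of the 12 genes at E12.5, 27.7-fold, with XX pools at 8.74, 8.95 and 9.44 and XY pools at 4.54, 4.32 and 3.9. Those XY pools lay among readings of probe sets without a target, so this fold is one of signal.

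The nearest gene to Irx3 by this measure, Tdrp, spanned a smaller range than Irx3: 10.45, 10.67 and 10.73 in XX and 8.72, 9.03 and 8.7 in XY pools of E12.5, 3.48-fold lower in XY. Likeness thus follows the shape over arrays and not the size of the change. All 12 genes were called lower in XY at E12.5 and higher over the day in XX, which the choice by likeness largely fixes. In the alternatives 11 kept the first call throughout (Ccdc171 reached 0.11) and 4, Fezf2, Foxl2, Stum and Crnde, the second, with the others reaching at most 0.13. The lists of Irx3 and Irx5 shared no gene. Irx3 and Irx5 themselves correlated at 0.90 over 12 arrays and at 0.16 over the 9 arrays outside XX E12.5.

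**Figure D4:**
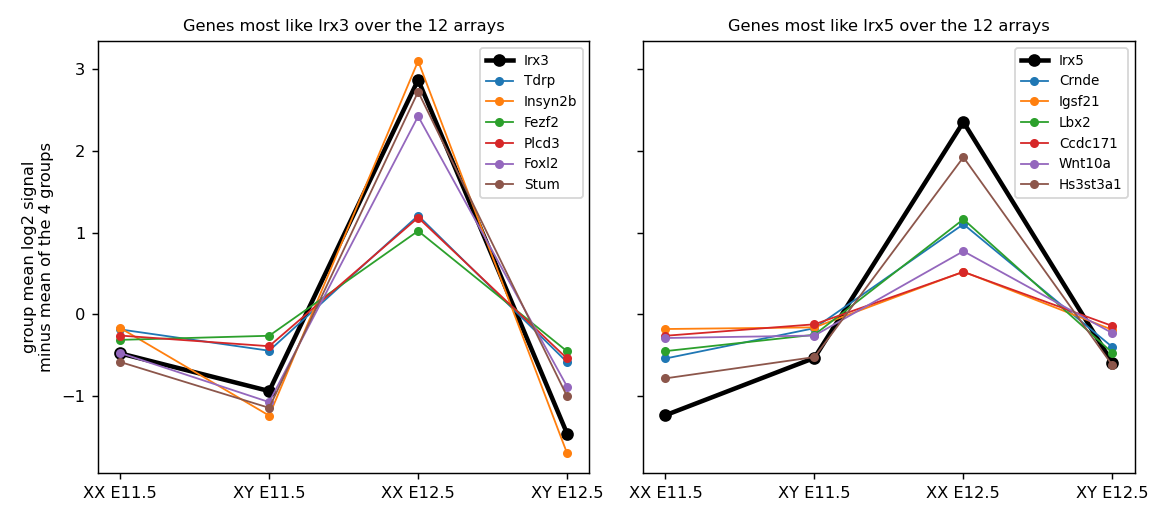
Group means of log2 signal, each minus the mean of the 4 groups, for Irx3 with its 6 most alike genes (left) and Irx5 with its 6 (right); lines join group means and show no errors. Every line peaks in XX E12.5, with Irx3 and Irx5 in black among the steeper ones, and Foxl2 on the left and Crnde on the right follow at smaller height.

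Other TALE homeobox genes, whose products are relatives of the Iroquois factors, included MEIS, PBX, PKNOX and TGIF genes, and 11 of 12 were measured. At E12.5, 0 were called higher and 3 lower in XY, with a median log2 difference of -0.57 against 0.00 over all genes, of which 11.1% were called. Pbx3, the gene of a homeodomain cofactor, read 11.55, 11.67 and 12.03 in XX and 9.21, 9.66 and 9.11 in XY pools of E12.5, which is 5.35-fold lower (-2.42 ± 0.19, limma adjusted p = 6.1e-05, 2 of 2 probe sets). Pknox2 differed by -1.63 ± 0.32 (limma adjusted p = 0.013, 1 of 2 probe sets) and was not called without XY E12.5 pool 3 (0.056). Tgif2 differed by -0.83 ± 0.20 (limma adjusted p = 0.03, 1 of 2 probe sets), a call lost without any 1 of the 6 E12.5 pools (up to 0.11).

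In XX cells 0 of 11 of these relatives were called over the day by limma (3 at an unadjusted p under 0.05, median 0.00, with 3.76% of all genes called). Tgif1, one of those 3, differed by 1.12 ± 0.31, or 2.18-fold, with no overlap of the pools and a limma adjusted p of 0.073. In XY cells 4 fell over the day, with 7.01% of all genes called. Their log2 differences were -2.35 ± 0.32 for Pknox2 (limma adjusted p = 0.0028), -1.77 ± 0.19 for Pbx3 (0.00066), -1.06 ± 0.20 for Meis1 (0.013) and -0.83 ± 0.20 for Tgif2 (0.036). Probe sets called were 1 of 2 for Pknox2, 2 of 2 for Pbx3, 2 of 3 for Meis1 and 1 of 2 for Tgif2. Leaving out XY E12.5 pool 3 took Meis1 over the threshold (0.055), and Tgif2 lost its call in 9 of 19 alternatives (up to 0.13). Pbx3 alone was called in the interaction, at -2.18 ± 0.27 (limma adjusted p = 0.0037, 1 of 2 probe sets), and at E11.5 0 of 11 were called by limma (2 at an unadjusted p under 0.05). Of all genes, 2.83% were called in the interaction and 0.0556% at E11.5. Irx3 and Irx5 thus had their called day change in XX, and Pbx3 had its own in XY. The difference between these profiles was not tested.

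Of genes tied to Iroquois factors in other tissues, such as connexin and ion channel genes of the heart, 9 of 10 were measured. With the brightest probe set of each gene 0 were called by limma in any of the 5 comparisons, with 2 or 3 in each at an unadjusted p under 0.05. Of all genes, 0.0556% were called at E11.5 and 11.1% at E12.5. Over the day 3.76% were called in XX and 7.01% in XY, with 2.83% in the interaction. With 9 genes, 0 calls is not far from these shares. Dimmer probe sets were called lower for Cux1 (1 of 9 at E12.5 and 3 of 9 over the day in XY), for Kcnd2 (1 of 4 in each of these) and for Trps1 (1 of 4 in each of these and over the day in XX). Their median differences were -0.02 at E11.5, -0.05 at E12.5, 0.05 over the day in XX, -0.27 over the day in XY and -0.03 in the interaction. Gja1, the connexin 43 gene and a known Irx3 target in heart, differed by 0.06 ± 0.10 between sexes at E12.5 (95% interval -0.16 to 0.27).

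The gene lists of the 2 fates give the setting in which Irx3 and Irx5 moved. They were chosen with their behaviour in these samples known and are no independent evidence of direction. Of 12 pregranulosa and beta-catenin genes, 10 were called lower in XY at E12.5 (median -2.64), 5 rose over the day in XX (median 1.03) and 7 were lower in the interaction (median -2.35). Of all genes, 11.1%, 3.76% and 2.83% were called in these comparisons. Gng13, a G protein subunit gene, rose 10.2-fold in XX and Axin2, a beta-catenin target, 2.74-fold, each with 1 of 2 probe sets called, beside 10.1-fold for Irx3 and 11.9-fold for Irx5. Rspo1, a secreted activator of this pathway, rose 5.01-fold in XX and was 15.6-fold lower in XY at E12.5. The base of Gng13, an XX E11.5 mean of 6.0, lay among readings of probe sets without a target, so its fold is one of signal. Fst, the follistatin gene, differed most between sexes, 90.3-fold, while its day change in XX of 1.91 ± 0.49 missed the threshold (limma adjusted p = 0.063) with the brighter of its 2 probe sets and passed it with the other.

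In XY, 5 of these 12 genes fell over the day, with 7.01% of all genes called. Among them were Fst at -3.16 ± 0.49 (1 of 2 probe sets called) and Rspo1 at -1.30 ± 0.31, whereas Irx3 and Irx5 changed by -0.52 and -0.06 without a call. At E11.5 0 of 12 were called by limma (2 at an unadjusted p under 0.05, median -0.31), with 0.0556% of all genes called. Nr0b1 was called over the day in XX at a limma adjusted p of 0.049, lost in 11 of 19 alternatives (up to 0.17). The calls of Rspo1, Nr0b1, Lef1 and Bmp2 over the day in XY, and that of Bmp2 in the interaction, were lost in some alternatives too. Of 8 Sertoli genes, 8 were higher in XY at E12.5 (median 4.08), led by Cbln4, Ptgds, Dhh and Sox9, with 11.1% of all genes called. The call of Amh there was lost in 3 of 19 alternatives (up to 0.071). The 2 called at E11.5 were Sox9 and Fgf9, at 4.31 ± 0.38 and 5.84 ± 0.59 (2 of 3 and 1 of 2 probe sets called), a day on which no Iroquois gene was called. Both calls were lost in a fit to the E11.5 arrays alone (limma adjusted p = 0.23 and 0.28). The XX E11.5 mean of Fgf9, 5.77, lay among readings of probe sets without a target. Over the day 4 Sertoli genes rose in XY, 2 fell in XX, and 4 were called higher in the interaction, beside 7.01%, 3.76% and 2.83% of all genes called. Cyp26b1, of the 2 that fell, lost that call in 4 of 19 alternatives (up to 0.09).

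Markers of other cell types were read beside Irx3 and Irx5, as the mean deviation of each list from its 12-array mean. In bulk samples fewer cells of a type and less RNA per cell cannot be told apart. XX E11.5 pool 2, the lowest of its group for Irx3 and Irx5, read 1.92 for endothelial, 1.63 for interstitial mesenchyme, 0.90 for macrophage and 1.63 for mitosis genes, and -0.28 for supporting cell markers. The part of these cells in the spread of Irx3 at E11.5 was not tested. Without that pool the Irx3 rise in XX was 6.61-fold in place of 10.1-fold, and its interaction 9.47-fold in place of 14.5-fold. Irx3 and Irx5 were still called between sexes at E12.5, over the day in XX and in the interaction.

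At E12.5, 0 of 8 endothelial and 0 of 8 germ cell markers were called by limma, with 0 and 1 at an unadjusted p under 0.05. Mesonephric and coelomic epithelium markers read from -0.03 to 0.91 in XX and from -0.29 to -0.24 in XY pools, with 0 of 6 called by limma and 2 at an unadjusted p under 0.05, and their part in the higher Irx3 and Irx5 of XX was not tested. Supporting cell markers read from 0.29 to 0.49 in XX and from -1.11 to -0.99 in XY, and Lhx9 and Emx2 were the 2 of 5 called. Mitosis genes moved the opposite way to Irx3 and Irx5: 5 of 6 were called higher in XY at E12.5 (median 2.32, with 11.1% of all genes called), at list means of -2.37, -0.60 and -0.83 in XX and 1.20, 0.96 and 1.38 in XY pools. Over the day in XX their median was -1.42, with 0 of 6 called by limma and 4 at an unadjusted p under 0.05. In the interaction the median was 3.02, with Aurka called (a call lost without XY E11.5 pool 2, limma adjusted p = 0.051) and 6 of 6 at an unadjusted p under 0.05. Their part in the differences of Irx3 and Irx5 was not tested.

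At E12.5 Fcgr3 of 8 macrophage, Pdgfra of 6 interstitial mesenchyme and Klf1 of 5 erythroid markers were called higher in XY, with 11.1% of all genes called. These calls were lost without 1 pool of E12.5 for 3 or 4 choices of the pool, at limma adjusted p up to 0.078, 0.078 and 0.054. The median of the mesenchyme markers was -0.28, and Nr2f2 and Maf read lower in XY, at -1.27 and -2.02, without a call (limma adjusted p = 0.077 and 0.13), though 1 of 6 probe sets of Nr2f2 was called lower. Steroidogenic markers had 0 of 4 called by limma at E12.5, with 2 at an unadjusted p under 0.05. XX E12.5 pool 1, whose mitosis genes were lowest, read 12.6 for Irx3 and 8.99 for Irx5. The other pools of its group read 12.73 and 12.86 for Irx3 and 9.36 and 8.94 for Irx5. This is 1 pool, and a relation of the mitosis genes to Irx3 and Irx5 was not tested.

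Over the day in XX, 2 of 6 interstitial mesenchyme and 1 of 4 steroidogenic markers were called, all lower, with 3.76% of all genes called. Macrophage, mesonephric and coelomic epithelium, and erythroid markers had 0 of 8, 0 of 6 and 0 of 5 called by limma. At an unadjusted p under 0.05 these were 2, 2 and 0. Pdgfra differed by -2.00 (limma adjusted p = 0.035, lost in 6 of 19 alternatives, up to 0.12) and Nr2f2 by -1.69 (limma adjusted p = 0.045, lost in 10 of 19, up to 0.16). Cyp11a1, a steroidogenic enzyme gene, differed by -2.56 (limma adjusted p = 0.015) and was not called without XX E12.5 pool 2 or pool 3 (up to 0.067). In the interaction Fcgr3, 1 of 8 macrophage markers, was called, at 2.39 (limma adjusted p = 0.013), with 2.83% of all genes called. Endothelial and germ cell markers had 0 of 8 called by limma in both comparisons, with 0 and 1 at an unadjusted p under 0.05 over the day in XX and 1 of each list in the interaction. The part of these markers in the day change of Irx3 and Irx5 was not tested.

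**Figure D5:**
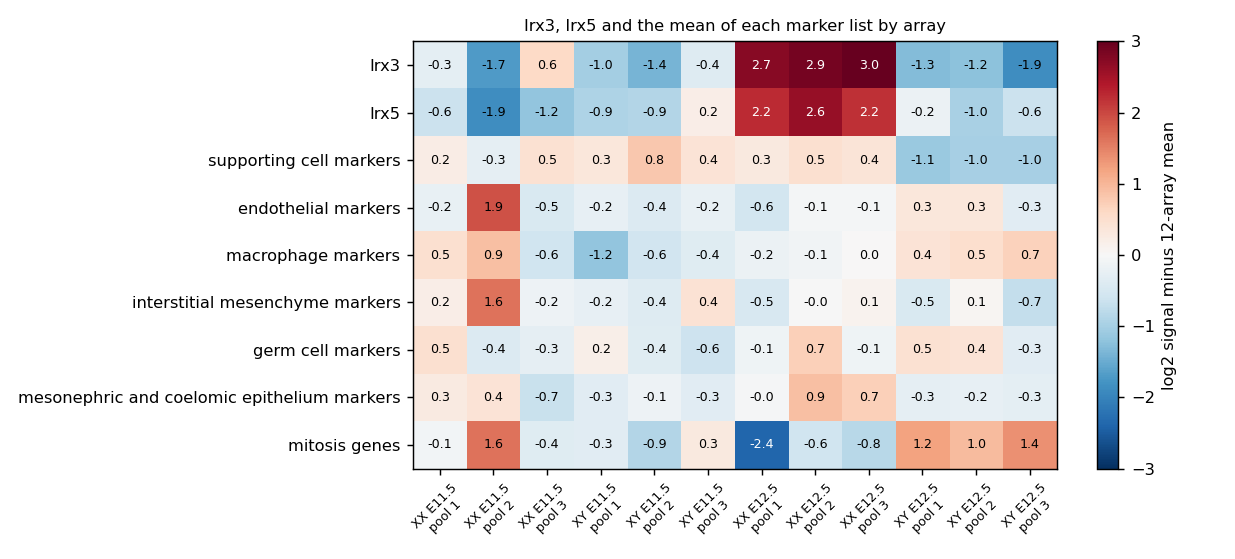
Log2 signal of Irx3 and Irx5 and the mean of each marker list, minus their 12-array means, for every pool (columns); red is higher and blue lower. The 3 XX pools of E12.5 are red for both genes, XX E11.5 pool 2 is blue for both and red for endothelial, mesenchyme and mitosis genes, and mitosis genes are blue in XX and red in XY at E12.5.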

How the data were processed

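Total RNA of 12 pools of sorted support cells was amplified in 2 rounds, biotin-labelled and read on 1 array each, per the labels' protocols. The authors deposited 1 table of log2 values per probe set and array. The log base is not stated and was taken as log2, since the largest value was 14.45. How probe signals were background-corrected, normalized and summarised is not stated in the labels used. Array values can compress differences of dim probe sets, and how far these do is not known. No depth applies to arrays: 3 pools per group limit the precision.

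Of 45037 probe sets, 798 were blank on every array and 1 on some, leaving 44238. Symbols came from the platform annotation, updated through Entrez identifiers with RefSeq GRCm38.p6 (34126 matched). Gene names were used only for the 34328 probe sets with a single symbol, while 850 had several and 9060 lacked one. In R 4.3.3, limma 3.58.1 (lmFit, eBayes) fitted the differences on 4 group means over 12 arrays, two-sided, with Benjamini-Hochberg adjustment over all probe sets. Folds are 2 raised to the log2 difference. The fit was tested on simulated data.

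All Iroquois probe sets were named. Other genes were the 6 most correlated with Irx3 and with Irx5, the 4 measured genes on each side of each cluster and those inside it, and up to 4 called members of each list per comparison by smallest p; Lhx9, Emx2, Rspo1 over the day in XY, Lef1, Bmp2, Nr0b1, Tgif1, Cux1, Kcnd2, Trps1 and the cell markers were named after their values were seen. Members and lists were chosen with earlier results of these data known. Alternatives were quantile normalization, median centring, the brighter part of the probe sets, array weights, a mean-dependent variance prior, the pool number as a block, fits to the arrays compared, a single probe set for each gene and leaving out each array. Genes other than Iroquois genes were added to the alternatives after seeing the data.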

Additional observations from a re-analysis of the deposited data

Results flagged for a closer look

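The change from E11.5 to E12.5 differed between the sexes for Irx3 and Irx5, by a test of the difference itself. For Irx3 the change in XY minus that in XX was -3.86 on the log2 scale (limma adjusted p = 0.022), made of 3.34 in XX and -0.52 in XY. For Irx5 it was -3.64 (limma adjusted p = 0.007), made of 3.58 in XX and -0.06 in XY. Both rises stand in 3 of 3 XX pools of E12.5, which lay above every XX pool of E11.5. Groups of 3 pools were not searched for outlying samples.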

How the results depend on the processing

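Counts of Iroquois probe sets called stayed the same in 92 of 99 alternatives. Over the day in XX, 1 was called in place of 2 with the compared arrays alone (Irx3, limma adjusted p = 0.051), and from 1 to 2 without 1 array. Without 1 array the count over the day in XY ran from 0 to 1 and that of the interaction from 1 to 2; the report names the pools. Of 544 single differences 509 kept direction and call, 6 lost the call, 1 gained it and 28 changed sign. The last were uncalled values, not all of them near 0. Irx3 at E11.5 was -0.47 with all arrays and 0.06 without XX E11.5 pool 3. At E11.5, Irx2 was 0.00 with array quality weights. Over the day in XY, Irx4 was 0.00 with quantile normalization and 0.01 with median centring, and Irx5 was 0.00 with quantile normalization and 0.01 with array weights. In the interaction, Irx4 was 0.05 with quantile normalization, 0.05 with median centring and 0.00 with array weights, and Irx6 was 0.04 with each of the first 2. Without 1 array, at E11.5, Irx1 ran from 0.00 to 0.26, Irx2 from -0.10 to 0.05 and Irx3 from -1.08 to 0.06; Irx4 ran from -0.09 to 0.03 over the day in XX, Irx5 from -0.27 to 0.30 over the day in XY, and Irx4 and Irx6 from -0.07 to 0.04 and from -0.12 to 0.07 in the interaction. At E12.5 Irx3 ran from -4.44 to -4.12 and Irx5 from -3.15 to -2.75. Causes were not tested. The labels do not say what the pool numbers mean, and whether they pair the samples is not known. The 18 same-numbered pairs correlated from -0.40 to 0.23, 4 of them over 0.1, which with 3 pools per group cannot settle that. With the pool number as a replicate block, 0 and 2 probe sets were called between sexes at E11.5 and at E12.5, 2 and 0 over the day in XX cells and in XY cells, and 2 for the interaction, as without it, and no Iroquois call changed. Filtering to the brighter part dropped Irx1, Irx2, Irx4 and Irx6, which then had no value. A low signal limits what can be said of these 4 genes, and of Irx5 outside XX E12.5.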
